A study of Mus musculus with 8 samples.

Results

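*Arsi* and 8 related genes, the sulfatases *Arsj*, *Arsa*, *Arsb*, *Arsg*, *Arsk*, *Galns* and *Ids* and the sulfatase-activating enzyme *Sumf1*, were followed in RNA sequencing libraries of the mouse left ventricle (LV). The genes were found by symbol in the table of 46040 genes, and each of the 9 symbols matched 1 row. The group was chosen by the measured difference of *Arsi* between the genotypes in these libraries, and the other members were added as its enzyme family, so that the values of *Arsi* are given as a description without a test. Of the 9 genes, 8 passed the filter on low counts, at least 1 CPM (counts per 1000000 counts of the library) in 2 or more libraries, as did 13542 genes in all. *Arsj* did not pass.

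All mice were C57BL/6 males of 5 to 7 months and received angiotensin II (angII) by osmotic minipump at 0.1 mg/kg/h, with tissue taken from the survivors on day 14. One group of 4 libraries has the genotype tag wildtype and the library name WT2, and the other group of 4 has the tag VEGFR1_TK -/- and the name dVEGFR1TK2, for mice whose *Flt1* allele lacks the tyrosine kinase domain of VEGFR-1 in every cell. The sample titles give the opposite genotypes. The groups are therefore called WT2 and dVEGFR1TK2 by library name, each log2 fold change sets dVEGFR1TK2 against WT2, and every sign turns if the titles are right. No untreated mice were analysed here, so that a response to angII itself was not measured, and nothing in the labels tells whether animals were pooled.

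Counts on genes ranged from 11449137 to 16239670 per library. *Flt1* was at 56.9 to 84.3 normalized CPM (CPM scaled by TMM factors) in WT2 and at 144 to 169.6 in dVEGFR1TK2, but whole-gene counts do not show which transcripts carry the kinase domain. The labels name LV tissue although the library names hold the word cardiomyo, and the 6 cardiomyocyte markers summed to 57827 to 92315 normalized CPM per library, while the 4 adipocyte markers summed to at most 1.35 and the 4 atrial markers to 15.4 to 21.8.

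Sulfatases remove sulfate groups from complex sugars, sulfolipids and steroids. Most of them work in the lysosome, where they strip sulfate from heparan, dermatan, chondroitin and keratan sulfate so that glycosidases can take the chains apart, and the loss of a single enzyme causes a storage disease such as mucopolysaccharidosis, in which the heart valves and myocardium are often affected. Each sulfatase is inactive until *SUMF1*, the formylglycine-generating enzyme of the endoplasmic reticulum, converts a cysteine of its active site. *Arsi* and its close relative *Arsj* encode sulfatases with poorly known substrates.

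Promoters were read from RefSeq (GRCm38.p6) for 7 members, *Arsa*, *Arsb*, *Arsg*, *Arsj*, *Arsk*, *Ids* and *Sumf1*, in 8 promoters. Those of *Arsi* and *Galns* were not read. The 8 promoters were searched in the 250 bases before the start site for CACGTG, which reads the same on both strands. It is the core of the element through which TFEB, the regulator of lysosomal genes, acts. These letters occurred in the promoters of *Arsa* and *Sumf1*, 1 time each, and in 6.02% of all 32851 promoters of the same length. The longer form TCACGTGA, which contains CACGTG, occurred only in that of *Sumf1* among the 7 members read, and in 0.785% of all promoters. The lines show these windows 5′ to 3′ on the minus strand, with CACGTG in capitals, because they are the only 2 matches among the 7 members read.

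*Arsa*, chr15:89477428-89477460: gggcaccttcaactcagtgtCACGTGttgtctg

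*Sumf1*, chr6:108185587-108185614: ctgctttaagcaccacaggtCACGTGat

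The motif begins 16 bases before the start site in *Arsa* and 11 bases before it in *Sumf1*. A match describes these letters alone, and the RNA levels of both genes are given below in the order of their roles.

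The members covered a wide range of levels in the LV. Per kb of exon, the mean level over all 8 libraries was highest for *Arsa* at 8.29 normalized CPM per kb. It was followed by *Sumf1* at 5.85, *Galns* at 4.58, *Ids* at 4.55, *Arsb* at 2.40, *Arsi* at 1.43, *Arsk* at 0.851, *Arsg* at 0.756 and *Arsj* at 0.133. The ranges over the libraries of neighbours in this order overlapped, except between *Ids* and *Arsb* and between *Arsg* and *Arsj*. *Arsa* was thus 5.79 times the level of *Arsi*, and *Arsj* was 0.0927 times that level. Divided by coding length in place of exon length, 5 of the 9 genes took another rank, *Arsk* standing above *Arsi*. Beside them, the secreted heparan sulfate endosulfatase *Sulf2*, which is not a member, stood higher than any member at 16.2 normalized CPM per kb.

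**Figure D1:**
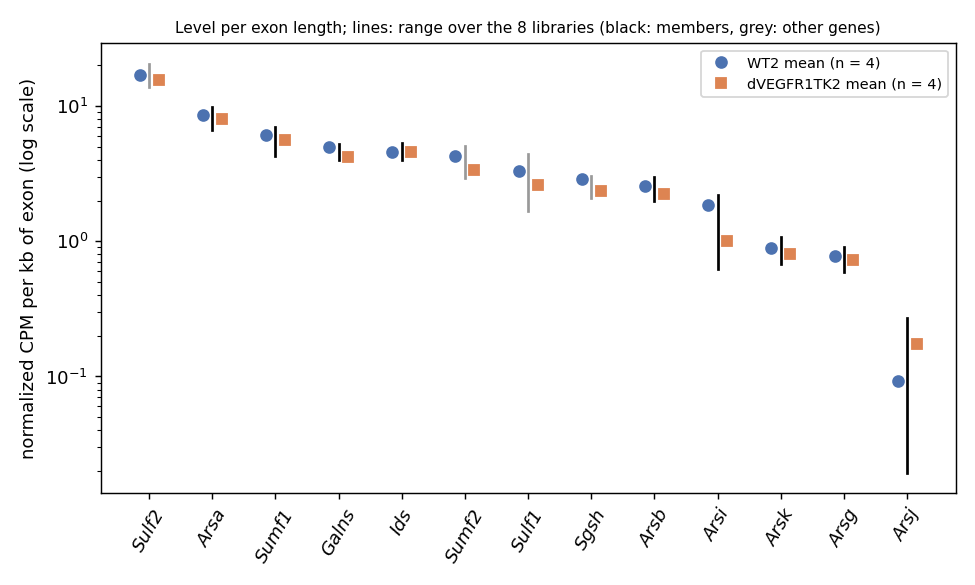
Normalized CPM per kb of exon on a log axis for the 9 members (black lines), 3 other sulfatases and *Sumf2* (grey lines). Lines span the range over the 8 libraries, circles are the means of WT2 and squares those of dVEGFR1TK2 (n = 4 each); among the tested members, *Arsi* had the lowest ratio of the means, 1.86 in WT2 against 1.00 in dVEGFR1TK2.

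*Arsi* (ENSMUSG00000036412) has 1 annotated transcript on the plus strand of chromosome 18 of GRCm38, from 60911780 to 60918561. In WT2 replicates 1 to 4, 78, 90, 90 and 47 reads gave 5.84, 6.53, 6.05 and 3.76 normalized CPM. In dVEGFR1TK2 replicates 1 to 4, 37, 21, 51 and 38 reads gave 3.01, 1.86, 4.03 and 3.03 normalized CPM. WT2 replicates 1 to 3 stood above all others, and the groups overlapped only because WT2 replicate 4 lay below dVEGFR1TK2 replicate 3.

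The mean of *Arsi* was 5.55 ± 1.23 normalized CPM (SD, n = 4) in WT2 and 2.98 ± 0.885 (SD, n = 4) in dVEGFR1TK2, a ratio of 0.538 and a log2 fold change of −0.89 (SE 0.25). Among the 13542 genes tested, 83 (0.613%) had a log2 fold change as low or lower. The SD was 22.1% of the mean in WT2 and 29.7% in dVEGFR1TK2, where counting error alone would give 11.5% and 16.5% at these read numbers. When single libraries were left out, the value ran from −1.07 (no dVEGFR1TK2 replicate 3) to −0.73 (without dVEGFR1TK2 replicate 2).

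**Figure D2:**
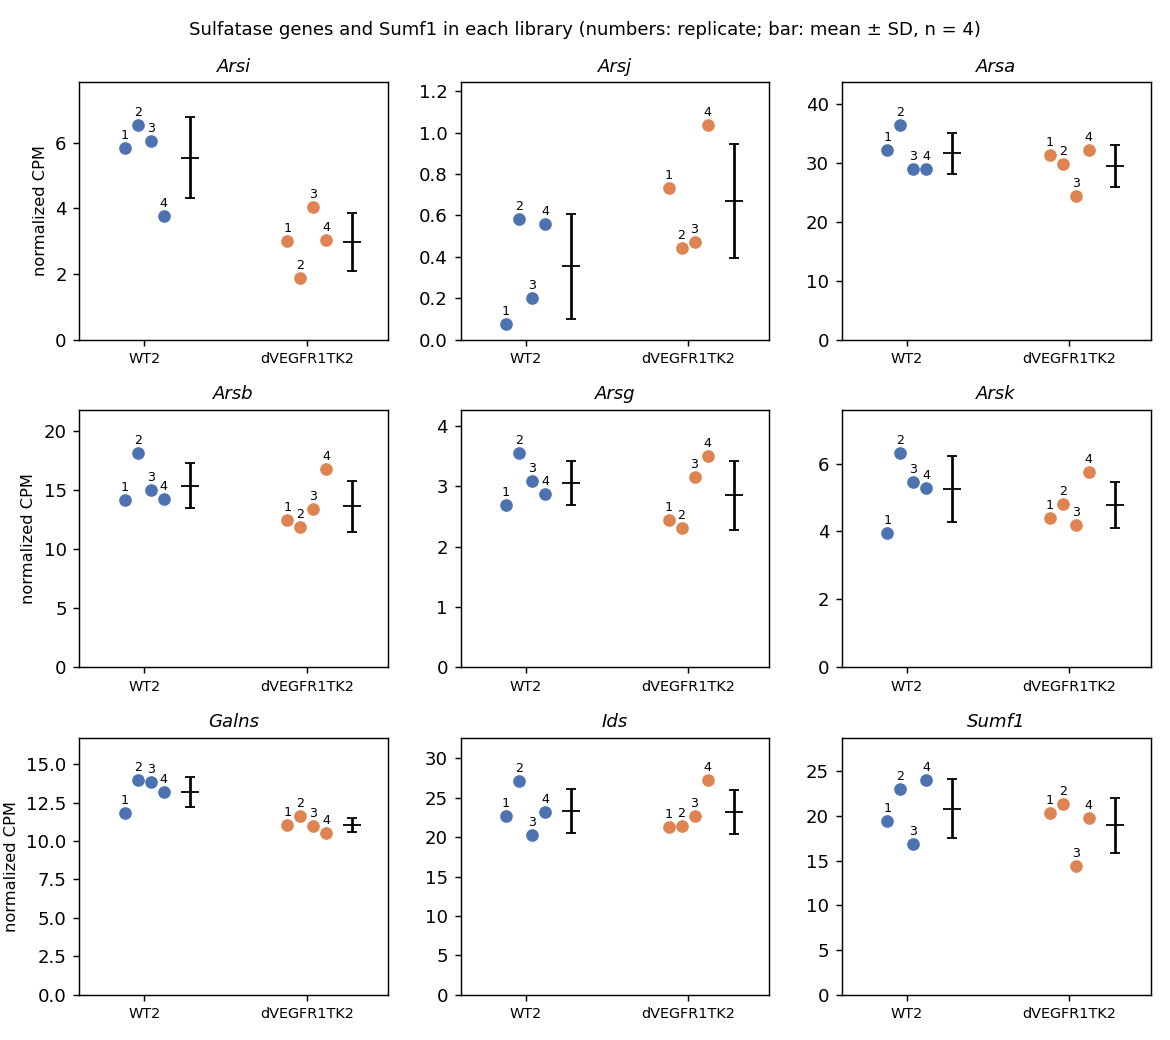
Normalized CPM of the 9 genes in each library, with the replicate number above each point and the mean ± SD (n = 4) as a bar; every axis starts at 0. *Arsi* ran from 3.76 to 6.53 in WT2 and from 1.86 to 4.03 in dVEGFR1TK2, and only *Galns* among the tested members had groups that did not overlap.

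Levels of cell type markers are given beside those of *Arsi*, and no gene of these lists was called. All 6 genes of the pericyte and smooth muscle list had a log2 fold change below 0, with a median of −0.49, where 50.3% of all genes were below 0. A gene was called at an FDR (Benjamini-Hochberg adjusted p over all genes) under 0.1 and at least a 1.5-fold difference. Among them, *Pdgfrb*, the PDGF receptor of pericytes, had 139 ± 19.1 normalized CPM in WT2 and 95.8 ± 17.8 in dVEGFR1TK2 (SD, n = 4 each), and *Kcnj8*, a potassium channel subunit of pericytes, was at 73.0 ± 17.3 and 46.6 ± 6.62. The groups of these 2 genes did not overlap, with dVEGFR1TK2 below WT2 as in 2.53% of all genes, and both had an FDR of 0.442. *Myh11*, the myosin of smooth muscle, was at 70.3 ± 13.2 and 69.4 ± 15.3, a log2 fold change of −0.02, with overlap. Groups also overlapped in the rest of the list. *Rgs5*, at the highest level of the list, had 811 ± 182 and 581 ± 91.4 (log2 fold change −0.48). *Abcc9* had 220 ± 23.2 and 206 ± 28.3 (−0.10), and *Notch3* had 69.8 ± 10.3 and 49.3 ± 8.94 (−0.50).

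The list summed to 1147 to 1621 normalized CPM in the WT2 libraries and to 859 to 1170 (1169.6) in the dVEGFR1TK2 libraries, and no marker of it was at 0. dVEGFR1TK2 replicate 2 had the lowest *Arsi* and the lowest sum of all libraries. WT2 replicate 4 had the lowest *Arsi* of its group and the second highest sum of its group, 1397. The endothelial list summed to 1138 to 1455 in WT2 and 1034 to 1181 in dVEGFR1TK2, the fibroblast list to 1055 to 1548 and 567 to 1316, and the macrophage list to 271 to 316 and 190.5 to 279. Their median log2 fold changes were −0.27, −0.19 and −0.31, with 5 of 6, 6 of 6 and 6 of 6 genes below 0. The red blood cell list summed to 309 to 766 and 359 to 601, with 5 of 5 genes below 0 and a median of −0.37. In the cardiomyocyte list, by contrast, 1 of 6 genes was below 0 and the median was 0.13. At an unadjusted p under 0.05, *Tnni3*, cardiac troponin I, was its 1 higher gene (log2 fold change 0.36, SE 0.16, FDR = 0.551), against 3.32% of all genes. Lower at that cut were 4 of 6 pericyte and smooth muscle, 3 of 6 endothelial and 1 of 6 macrophage genes, against 5.64% of all genes. The fibroblast and red blood cell lists had 0. In bulk LV tissue, fewer cells of a type and less RNA per cell cannot be told apart, and the part of these markers in the values of *Arsi* was not tested.

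**Figure D3:**
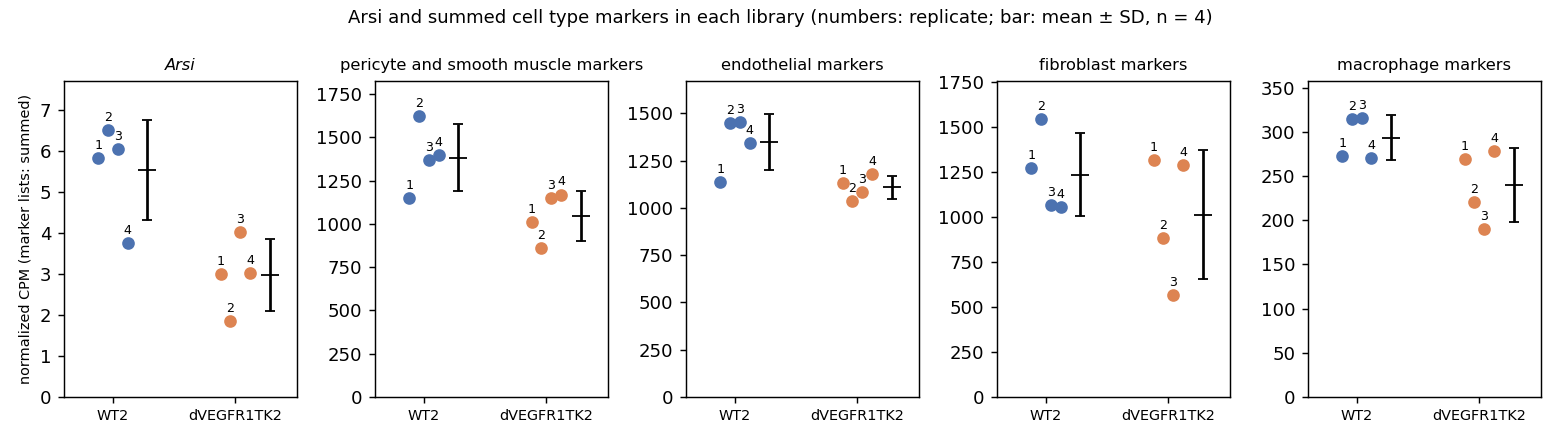
Normalized CPM of *Arsi* and the summed normalized CPM of 4 marker lists of 6 genes each, per library, with replicate numbers and the mean ± SD (n = 4). The pericyte and smooth muscle sums overlapped between the groups only at WT2 replicate 1 (1147), which lay below dVEGFR1TK2 replicates 3 (1149) and 4 (1169.6).

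The genes most like *Arsi* over the 8 libraries were sought by the root mean square difference of log2 normalized CPM after the mean of each gene was subtracted. The 5 nearest were *Cpne7*, a copine, with a difference of 0.160, *Pcdh19*, a protocadherin, with 0.213, *Vipr1*, a receptor of vasoactive intestinal peptide, with 0.223, *Pianp* with 0.226 and *Foxo6*, a forkhead transcription factor, with 0.236. The median over all genes was 0.595. *Cpne7* had a mean of 4.98 normalized CPM in WT2 and 2.77 in dVEGFR1TK2, and *Pcdh19* had means of 13.96 and 8.56. This likeness includes the difference for which *Arsi* was chosen. Of the other tested members, the closest to *Arsi* were *Arsb* at rank 1000 of 13541 genes (0.462), *Arsg* at 1200 (0.473) and *Galns* at 1354 (0.479). The rest ran from rank 3757 (*Arsa*) to 8753 (*Sumf1*). A gene with the same level in all libraries would have a difference of 0.557.

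**Figure D4:**
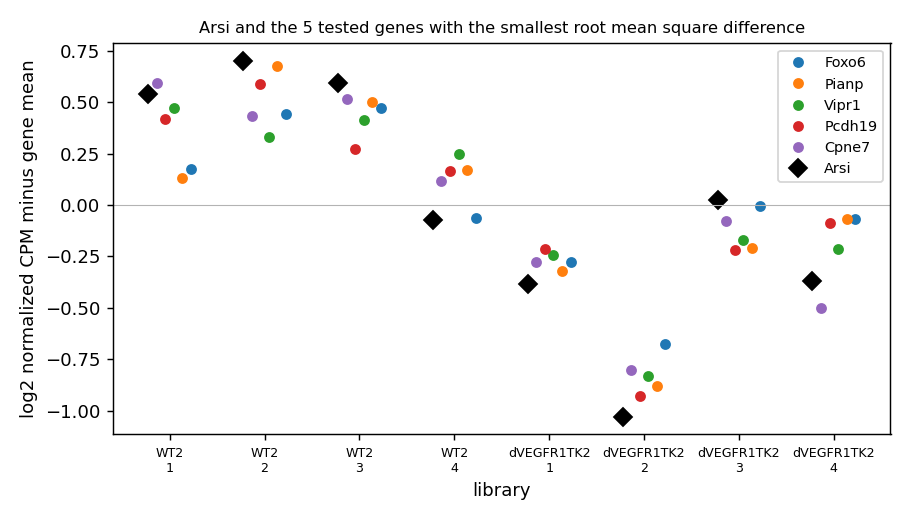
Log2 normalized CPM minus the mean of each gene, in each of the 8 libraries, for *Arsi* (black diamonds) and the 5 genes with the smallest root mean square difference from it (0.160 to 0.236). All 6 genes had their lowest value in dVEGFR1TK2 replicate 2, which follows in part from choosing the 5 for their likeness to *Arsi*.

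*Arsj* (ENSMUSG00000046561, chromosome 3, 126363684 to 126440375, plus strand) was at the edge of detection. Its 1, 8, 3 and 7 reads in WT2 replicates 1 to 4 and 9, 5, 6 and 13 reads in dVEGFR1TK2 replicates 1 to 4 corresponded to 0.0749 to 0.581 and 0.444 to 1.04 normalized CPM. The groups overlapped. Summed over each group, 19 reads gave 0.349 normalized CPM (exact Poisson 95% interval 0.210 to 0.544) and 33 reads gave 0.677 (0.466 to 0.950). These intervals cover counting error only. They overlapped each other, which does not decide whether the groups differ. The SD between libraries was 71.9% of the mean in WT2 and 41.0% in dVEGFR1TK2. Counting error alone would give 45.9% and 34.8%. With no filter on low counts the log2 fold change was 0.93 (SE 0.54, FDR = 0.733), and a difference was not established. A difference between the fold changes of *Arsi* and *Arsj* was not tested.

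The 7 other tested members were compared by edgeR's quasi-likelihood test over all genes. None of these 7 members was called, where 0.00738% of all genes were called (1 gene, *Flt1*). The log2 fold changes of the 7 members ranged from −0.26 to −0.01 with a median of −0.13, against a median of 0.00 (−0.0012) over all genes tested. All 7 had a value below 0, as did 50.3% of all genes. With an unadjusted p under 0.05, 1 of the 7 members was lower in dVEGFR1TK2, against 5.64% of all genes. The groups did not overlap in 1 of the 7 members, with dVEGFR1TK2 below WT2, as in 2.53% of all genes.

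**Figure D5:**
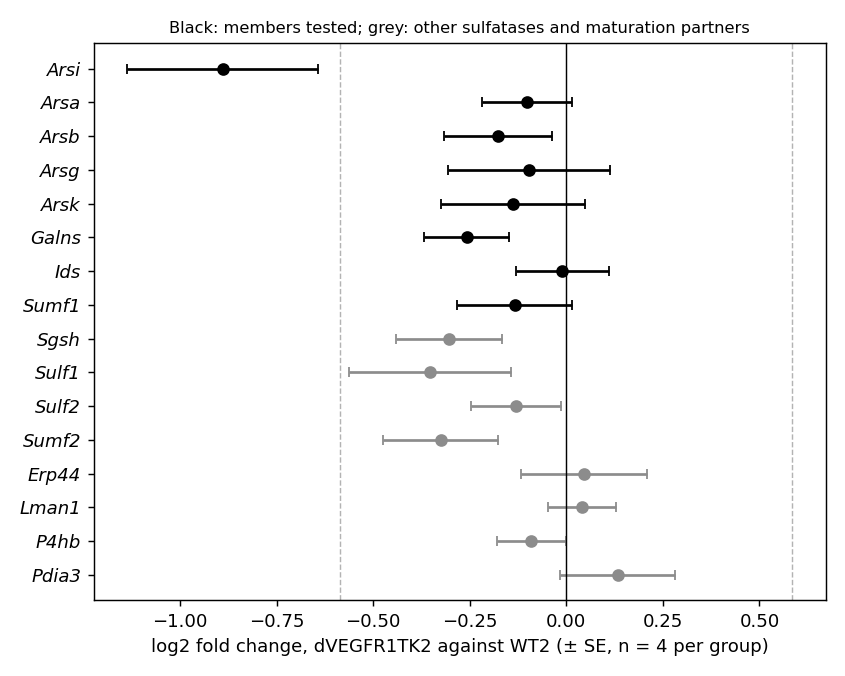
Log2 fold change ± SE of dVEGFR1TK2 against WT2 (n = 4 per group) for the 8 tested members (black) and 8 further sulfatase and maturation genes (grey), with dashed lines at a 1.5-fold difference either way. *Arsi*, at −0.89, was the only gene shown beyond a dashed line, and the other members lay between −0.26 and −0.01.

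That member was *Galns* (ENSMUSG00000015027, chromosome 8, 122578242 to 122611463, minus strand), the lysosomal sulfatase that opens the breakdown of keratan sulfate and is deficient in Morquio syndrome. Its normalized CPM was 11.8, 13.9, 13.9 and 13.2 in WT2 replicates 1 to 4 and 11.05, 11.6, 10.98 and 10.5 in dVEGFR1TK2 replicates 1 to 4. Every WT2 library lay above every dVEGFR1TK2 library, by a narrow gap between 11.8 and 11.6. The means were 13.2 ± 0.976 and 11.05 ± 0.455 (SD, n = 4 per group). The log2 fold change was −0.26 (SE 0.11, FDR = 0.535, 2-sided exact permutation p = 0.0286, the smallest that 4 against 4 allow). It did not pass the adjusted test. An unadjusted p under 0.05 was kept in 4 of 15 alternatives, while the log2 fold change stayed between −0.31 and −0.23. The SD between libraries was 7.39% and 4.12% of the mean, no wider than the 7.45% and 8.62% of counting error alone.

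The remaining sulfatases of sulfated sugar chains, which act one after another in the lysosome, had overlapping groups. *Arsb* (ENSMUSG00000042082, chromosome 13, 93771630 to 93943016, plus strand) encodes the N-acetylgalactosamine sulfatase of dermatan and chondroitin sulfate that is deficient in Maroteaux-Lamy syndrome. It was at 14.1, 18.1, 14.998 and 14.2 normalized CPM in WT2 replicates 1 to 4 and at 12.4, 11.9, 13.4 and 16.7 in dVEGFR1TK2 replicates 1 to 4. dVEGFR1TK2 replicates 1 to 3 were below all WT2 libraries and replicate 4 was above 3 of them. The log2 fold change was −0.18 (SE 0.14, FDR = 0.736, exact permutation p = 0.229). Of the 6037 exon bases of *Arsb*, 1948 (32.3%) are shared with *Gm26527* on the opposite strand, which had 0 reads in every library. Whether reads in shared exons were left out of the counts of *Arsb* is not given in the sources used here.

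*Ids* (ENSMUSG00000035847, chromosome X, 70343069 to 70365084, minus strand), the sulfatase of iduronate residues that is deficient in Hunter syndrome, was nearly equal in both groups. Its normalized CPM was 22.7, 27.1, 20.3 and 23.2 in WT2 and 21.3, 21.4, 22.7 and 27.2 in dVEGFR1TK2, with means of 23.3 ± 2.80 and 23.1 ± 2.77 (SD, n = 4 per group). The log2 fold change of −0.01 (SE 0.12, FDR = 0.987, exact permutation p = 0.914) had an approximate 95% interval from −0.25 to 0.23.

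*Arsk* (ENSMUSG00000021592, chromosome 13, 76060422 to 76098660, minus strand), the sulfatase of glucuronate residues, was at 3.97 to 6.32 normalized CPM in WT2 and 4.19 to 5.74 in dVEGFR1TK2, on 53 to 87 reads per library. *Arsg* (ENSMUSG00000020604, chromosome 11, 109473374 to 109573330, plus strand), a lysosomal sulfatase of glucosamine residues in heparan sulfate, was at 2.69 to 3.56 and 2.31 to 3.51 normalized CPM, on 26 to 49 reads. Their log2 fold changes were −0.14 (SE 0.19, FDR = 0.854) and −0.10 (SE 0.21, FDR = 0.921). With so few reads, the approximate 95% intervals were wide, from −0.50 to 0.23 for *Arsk* and from −0.51 to 0.31 for *Arsg*. *Arsg* shares 48 exon bases, 1.23% of its exon length, with *Slc16a6* on the opposite strand, which had 96 to 261 reads per library, and whether counting used strand is not given in the sources used here.

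*Arsa* (ENSMUSG00000022620, chromosome 15, 89472476 to 89477425, minus strand) encodes the enzyme that removes sulfate from sulfatide, a lipid of myelin, and is deficient in metachromatic leukodystrophy. Its normalized CPM was 32.1, 36.4, 28.9 and 28.9 in WT2 replicates 1 to 4 and 31.4, 29.8, 24.4 and 32.2 in dVEGFR1TK2 replicates 1 to 4. The groups overlapped broadly, with a log2 fold change of −0.10 (SE 0.12, FDR = 0.828, exact permutation p = 0.514). The antisense gene *C230037L18Rik* covers 690 of its 3680 exon bases and had 6 to 16 reads per library, against 309 to 501 for *Arsa*. Whether reads in these shared bases were left out of both counts is not given in the sources used here. Of the genes around sulfatide, *Psap*, the precursor of saposins that present lipids to lysosomal enzymes, had means of 1718 ± 199 and 1779 ± 134 normalized CPM (SD, n = 4 each), while *Gal3st1* and *Ugt8a*, which make sulfatide, had at most 0.237 in any library. None of the 3 tested genes of that list had an unadjusted p under 0.05.

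*Sumf1* (ENSMUSG00000030101, chromosome 6, 108107028 to 108185582, minus strand), on which the activity of all sulfatases depends, was at 19.5, 23.0, 16.9 and 24.0 normalized CPM in WT2 replicates 1 to 4 and at 20.3, 21.4, 14.5 and 19.8 in dVEGFR1TK2 replicates 1 to 4. Replicate 3 was the lowest library of each group, and the groups overlapped. The log2 fold change was −0.13 (SE 0.15, FDR = 0.821, exact permutation p = 0.486). Its paralog *Sumf2*, which lacks the activating function and binds sulfatases and *SUMF1*, had means of 11.3 ± 1.79 and 9.05 ± 1.02 normalized CPM (SD, n = 4 each), with a log2 fold change of −0.33 (SE 0.15, FDR = 0.556) and overlapping groups. Of the 5 maturation partners, *Sumf2* alone had an unadjusted p under 0.05, and the chaperones and cargo receptor *Erp44*, *Lman1*, *P4hb* and *Pdia3* had log2 fold changes from −0.09 to 0.13.

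The members shared a pattern between libraries of one group. WT2 replicate 2 was the highest WT2 library in 8 of the 9 members, and in 30.1% of all genes tested. It also had the highest or tied highest raw count of its group in 8 members. Its total of 12349639 was the lowest of the group, and its TMM factor of 1.117 was the highest. dVEGFR1TK2 replicate 4 was the highest of its group in 6 of the 9 members, against 24.4% of all genes. WT2 replicate 2 had the lowest cardiomyocyte marker sum (57827 normalized CPM, against 74517 to 92315 in the 7 others) and the highest pericyte and fibroblast sums, whose part in the sulfatase values was not tested. Without it, *Arsi* had a log2 fold change of −0.80, *Galns* of −0.23, *Arsa* of −0.03, *Arsk* of −0.04 and *Arsg* of −0.02, and *Ids* turned to 0.07.

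Beyond the members, 6 lists around sulfation were examined, of which 50 genes had a row in the table, 42 were tested and none was called. With an unadjusted p under 0.05, 7 of the 42 genes (16.7%) were lower and 1 (2.38%) was higher in dVEGFR1TK2, against 5.64% and 3.32% of all genes. The 7 include *Hs3st3a1*, which passed the filter on low counts only through WT2. Without dVEGFR1TK2 replicate 3, the lower genes numbered 3, and without any one of WT2 replicates 1, 2 and 3 or dVEGFR1TK2 replicates 1 and 2, they numbered 4.

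Among the other sulfatases, *Sgsh*, the heparan sulfamidase, was at 12.1 to 13.5 normalized CPM in WT2 and 9.24 to 13.2 in dVEGFR1TK2 (log2 fold change −0.30, SE 0.14, FDR = 0.556). *Sulf1*, a secreted endosulfatase that edits heparan sulfate at the cell surface, had the largest value of this list at −0.35 (SE 0.21, FDR = 0.641). *Sts*, the steroid sulfatase, was not analysed here. Of the 11 lysosomal enzymes and partners that cut sugar chains, 2 were lower and 1 higher at an unadjusted p under 0.05. They were *Gusb*, the beta-glucuronidase (−0.29, SE 0.13, FDR = 0.538), *Hyal2*, a hyaluronidase (−0.26, SE 0.11, FDR = 0.541), and *Idua*, the alpha-iduronidase (0.24, SE 0.11, FDR = 0.553). The 5 genes of mannose 6-phosphate sorting, which delivers these enzymes to the lysosome, had none, with log2 fold changes from −0.15 to 0.15, *Nagpa* having the largest value.

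The enzymes that add sulfate held the largest absolute log2 fold changes of these lists. Of 20 heparan and chondroitin sulfotransferases, 14 were tested, 11 of them below 0 with a median log2 fold change of −0.19, and 3 were lower at an unadjusted p under 0.05. *Chst7*, which sulfates chondroitin, was at 5.17 to 7.40 normalized CPM in WT2 and 2.69 to 4.79 in dVEGFR1TK2, and its groups did not overlap (log2 fold change −0.84, SE 0.21, FDR = 0.442). *Hs3st3b1*, a heparan sulfate 3-O-sulfotransferase, was at 1.89 to 2.56 and 0.977 to 1.82 normalized CPM, again without overlap (−0.76, SE 0.26, FDR = 0.468). Its close relative *Hs3st3a1* was at 0.740 to 1.44 and 0.533 to 0.813, with overlap (−0.89, SE 0.34, FDR = 0.506). With 11 to 19 reads per WT2 library and 6 to 10 per dVEGFR1TK2 library, *Hs3st3a1* passed the filter on low counts only through WT2. Its place among the lower genes was therefore favoured by the filter. Thus dVEGFR1TK2 lay wholly below WT2 in 2 of the 14 tested genes, against 2.53% of all genes, and wholly above it in none, against 2.46%. *Ndst1* and *Ndst2*, which begin the sulfation of heparan sulfate, were at 34.3 ± 2.17 and 34.4 ± 3.64 and at 18.2 ± 1.15 and 18.8 ± 0.714 normalized CPM in WT2 and dVEGFR1TK2 (SD, n = 4 per group).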

How the data were processed

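RNA of LV tissue was sequenced in 8 libraries. Per the study's methods and the labels, the authors used Trim Galore 0.4.4 for trimming, aligned the reads to GRCm38 with STAR 2.5.4b and counted on GENCODE M16 with featureCounts, and they deposited raw counts per gene. Its settings for strand and shared reads are not given in the sources used here. The methods describe poly-A selection and the labels depletion of ribosomal RNA. The labels do not say that libraries are separate animals, while the study gives n = 4 per group for this sequencing. The p-values set the difference between the groups against the spread between these samples.

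Here, genes reaching 1 CPM in 2 or more libraries were fitted over all libraries with TMM factors and edgeR's quasi-likelihood test (edgeR 4.0.16, R 4.3.3), without covariates. FDR stands for p adjusted over 13542 genes by Benjamini-Hochberg. SE is the log2 fold change divided by the root of the F statistic, and 95% intervals of fold changes are 1.96 SE on each side. These are approximate and somewhat narrow. That of *Tek*, for example, ran from −0.49 to −0.01 although its unadjusted p was not under 0.05. Single members were also compared by a 2-sided exact permutation test of log2 normalized CPM (prior count 2). Alternatives were the likelihood ratio test, which is the test of the study, DESeq2 1.42.0, RLE factors, total counts, no filter, filterByExpr, each library left out and a replicate block. The quasi-likelihood step was tested on simulated counts. Coordinates and exon lengths are from GENCODE M21 (GRCm38), which lacks 849 of the 46040 identifiers but no member. The members and lists were chosen with earlier results of these data known, and *Arsi* was left out of every count of members called, below an unadjusted p or without overlap. The named genes are all members, the 5 genes most like *Arsi*, *Flt1*, and, of each pathway list, those with an unadjusted p under 0.05 and the largest absolute log2 fold change. Other list genes, marker genes and overlapping genes were named after their values were seen. Values of 1 list gene are not reported here.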

Additional observations from a re-analysis of the deposited data

How the results depend on the processing

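The log2 fold change of *Arsi* ran from −1.07 to −0.73 over the 15 alternatives. As *Arsi* was chosen for its difference in these libraries, its steady sign is no independent support. The log2 fold changes of *Arsa*, *Arsb*, *Arsg*, *Arsk*, *Galns* and *Sumf1* stayed below 0 in all 15 alternatives, and none of the members other than *Arsi* was called in any of them. That of *Ids* ran from −0.097 to 0.070 with a library left out, being 0.070 without WT2 replicate 2, 0.03 without dVEGFR1TK2 replicate 1 and 0.02 without dVEGFR1TK2 replicate 2, and below 0 in the other 12 alternatives. The cause was not tested. As the alternatives reuse the same libraries, a steady sign of the other members is no independent support either. The log2 fold change of *Arsg* came as near to 0 as −0.013, without dVEGFR1TK2 replicate 2. Of the members other than *Arsi*, 1, *Galns*, had an unadjusted p under 0.05. The number was 0 with the likelihood ratio test, DESeq2, total counts, no filter on low counts and the replicate block, and 0 to 1 with a library left out. Members without overlap, again other than *Arsi*, numbered 1, and 1 to 2 with a library left out, being 2 without dVEGFR1TK2 replicate 4. Over all genes, calls rose from 1 to 53 with the likelihood ratio test, 32 with DESeq2 and 23 without the filter, and were 1 to 3 with a library left out. The study, with the likelihood ratio test and the same thresholds, reported fewer genes than these 53, and the reason was not tested. Of the pathway genes, 7 were lower at an unadjusted p under 0.05, 4 with total counts and 3 to 6 with a library left out, and 1 was higher, 0 with the likelihood ratio test, DESeq2 and total counts and 0 to 1 with a library left out. By coding length, 5 members changed rank. With RLE factors, the same 5 genes were nearest to *Arsi*.

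Replicate numbers are not said to pair the samples, and the correlations of deviations between samples of the same number were −0.03, 0.03, 0.34 and −0.06, with each number's own pair highest in 1 of 4. With the replicate block, *Arsi* had a log2 fold change of −0.89 and 1 gene was called. *Arsg* and *Arsk*, at 26 to 87 reads per library, *Hs3st3a1*, at 6 to 19, and *Arsj*, at 1 to 13, rest on few reads.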
